A study of Mus musculus with 6 samples.

Results

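Transcripts of 10 genes of prostaglandin E synthesis, reception and breakdown were described in mouse stomach, among 23550 gene symbols measured. The genes were chosen by symbol, and all 10 were present in the table: the cyclooxygenases Ptgs1 and Ptgs2, the prostaglandin E synthases Ptges, Ptges2 and Ptges3, the receptors Ptger1, Ptger2, Ptger3 and Ptger4, and the dehydrogenase Hpgd. RNA labelled as stomach was sequenced from mice gavaged for 14 days with saline (3 libraries, replicates 1, 2 and 4) or with the polysaccharide Riclin at 20 mg per kg (3 libraries, replicates 2, 3 and 4). The comparison bears on how Riclin acts on the mucosal barrier of the stomach. Strain, genotype and age were not used here, and the sources do not state whether these mice also received ethanol, as others in the study did. Nothing in the labels ties each library to its own animal, and the p-values therefore describe the spread between libraries alone.

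Prostaglandins are lipid signals made where they act. A phospholipase frees arachidonic acid from membranes, a cyclooxygenase turns it into an unstable intermediate, and a terminal synthase turns that into prostaglandin E2. In the stomach this lipid is known to restrain acid secretion, to raise mucus and bicarbonate output and to sustain mucosal blood flow, and inhibition of the cyclooxygenases is the textbook cause of gastric damage by aspirin-like drugs. Its 4 receptors differ in their coupling: Ptger1 acts through calcium, Ptger2 and Ptger4 raise cyclic AMP, and Ptger3 mostly lowers it. Breakdown follows uptake into cells by the transporter Slco2a1 and starts with oxidation by Hpgd.

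Total reads per library, worked out from the FPKM values, ranged from 30884067 to 40050267. Markers of parietal, surface mucous and chief cells were present in every library, as the stomach label implies. Genes known from the acinar cells of the pancreas took very different shares of the libraries. Over 24 acinar genes the share was 4.30% in saline replicate 1, 17.6% in replicate 2 and 16.4% in replicate 4. In Riclin it was 11.9% in replicate 2, 0.0323% in replicate 3 and 11.1% in replicate 4. Pla2g1b, on the same list, was left out of these shares. It measured 17313, 7925 and 11788 FPKM in saline and 17029, 21654 and 17035 in Riclin. Riclin replicate 4 stood apart in gastrin, the hormone of the antrum, with 2.62 FPKM of Gast against 420 and 389 in the other Riclin libraries and 676 to 1037 in saline. Pdx1, a transcription factor of the antrum, was at 1.93 to 4.29 FPKM in Riclin and 6.51 to 8.48 in saline. Both antral markers measured were thus lower in every Riclin library than in any saline library, as were 3.02% of all tested genes.

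In every library the breakdown enzyme was the most abundant of the 10 transcripts, and the inducible cyclooxygenase and Ptger2 were the scarcest. FPKM, the unit of all levels here, scales fragments to gene length and sequencing depth. Levels of different genes can therefore be set side by side only as far as the gene lengths used hold. The values imply 2174 bases for Ptger3 and 3327 for Ptger4, where the annotated exons span 5688 and 6648. The gene models that were counted are not stated, so the order below depends on them. Hpgd ranked first, Ptges3 the second and Ptges2 the third in each of the 6 libraries. Ptges ranked the seventh and Ptger1 the eighth in all 6. Between them, Ptger3, Ptger4 and Ptgs1 changed places from library to library. Ptgs2 and Ptger2 held the last 2 places and also traded them, so that these neighbours in the order did not differ beyond their spread.

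**Figure D1:**
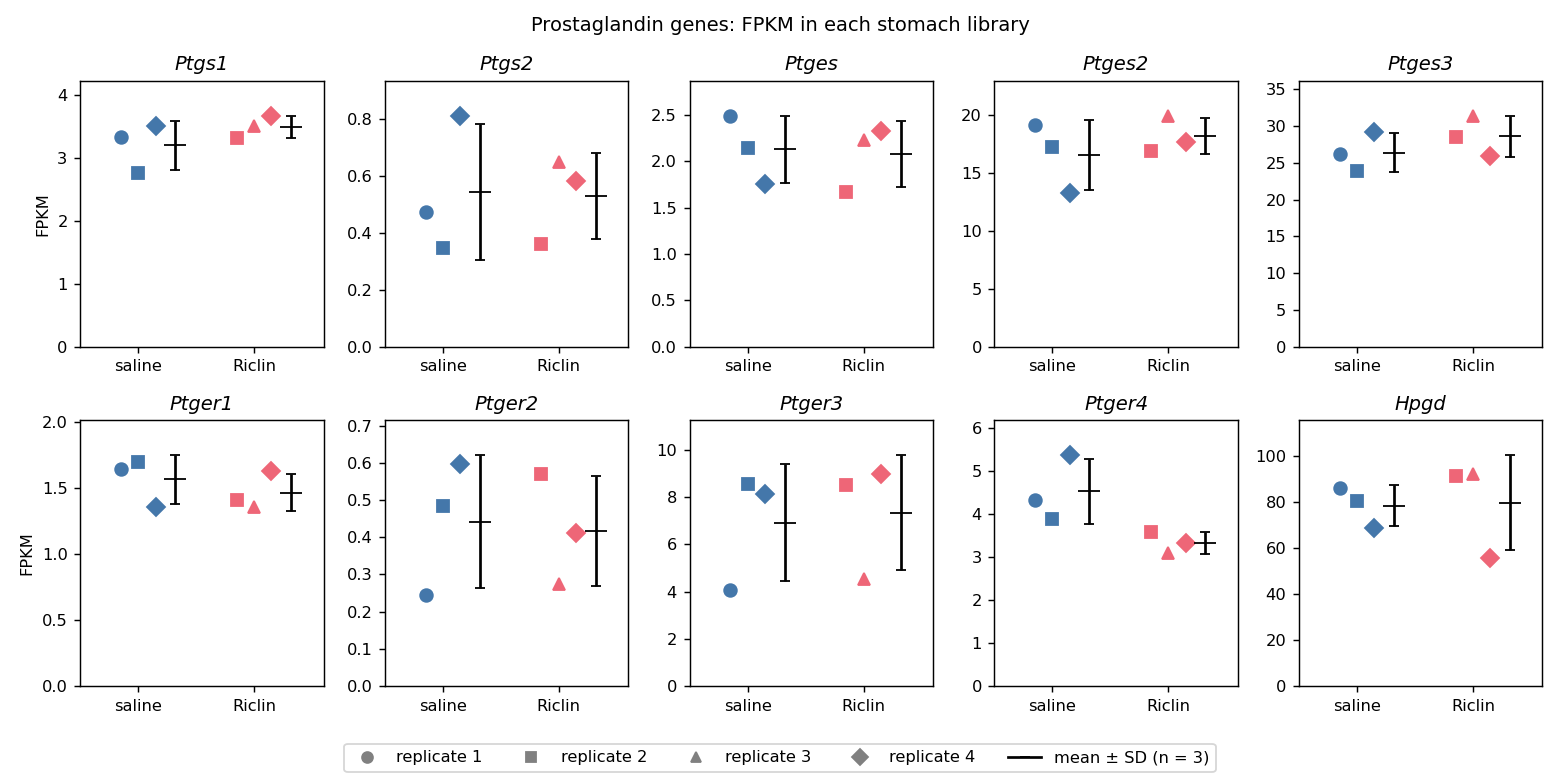
FPKM (vertical axis, linear, from 0) of each of the 10 genes in 3 saline (blue) and 3 Riclin (red) stomach libraries; symbols give the replicate number, and the black bar is the mean ± SD of 3 libraries. The groups overlap in every panel but that of Ptger4, where Riclin lies at 3.08 to 3.58 and saline at 3.89 to 5.36.

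None of the 10 genes differed between Riclin and saline past the adjusted threshold, and Ptger4, lower in Riclin, came closest. A gene was tested where 3 or more libraries reached 1 FPKM, which 8 of the 10 did and Ptgs2 and Ptger2 did not. By limma 0 of these 8 passed a Benjamini-Hochberg adjusted p of 0.05, where 0% of all 11738 tested genes did. At an unadjusted p under 0.05 there was 1, against 5.90% of all tested genes (693 genes). The groups did not overlap in the same 1 of 8, against 11.2% of all tested genes. Of the 8 fold changes 4 lay above 0 and 4 below, with a median log2 fold change of 0.04, the same to 2 decimals as the 0.04 over all tested genes. By voom on recovered reads 0 genes passed the adjusted threshold as well, with 743 at an unadjusted p under 0.05.

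Ptgs1, the constitutive cyclooxygenase of the gastric mucosa, measured 3.33, 2.76 and 3.51 FPKM in saline replicates 1, 2 and 4, and 3.31, 3.51 and 3.66 FPKM in Riclin replicates 2, 3 and 4. Saline replicate 2 was the lowest and Riclin replicate 4 the highest, and the groups overlapped. The log2 fold change was 0.10 (SE 0.106, 95% interval -0.14 to 0.35, limma adjusted p = 0.910). The highest library exceeded the lowest by 1.33-fold, and the standard deviation of log2(FPKM + 1) over the 6 libraries stood at the 19.7th percentile of all tested genes. Ptgs1 lies on GRCm38 chromosome 2 from 36230426 to 36252272 on the plus strand.

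Ptgs2, the cyclooxygenase that injury and inflammation induce, stayed under 1 FPKM in all 6 libraries. Its levels were 0.473, 0.349 and 0.813 FPKM in saline replicates 1, 2 and 4, and 0.361, 0.649 and 0.584 FPKM in Riclin replicates 2, 3 and 4. Saline held both the highest and the lowest library. These levels rest on 56 to 116 reads a library. For saline replicate 2 the exact 95% Poisson interval was 0.263 to 0.453 FPKM, and for saline replicate 4 it was 0.670 to 0.978, so these saline libraries differed by more than counting error, which is all that the interval covers. The group means were 0.545 ± 0.240 and 0.531 ± 0.151 FPKM (SD, n = 3 each). An exact permutation test, two-sided, gave p = 1.0, where 3 against 3 cannot go below 0.1. With no filter on low values the log2 fold change was -0.0062 (95% interval -0.34 to 0.33), on a scale that understates changes of low genes. Ptgs2 lies on chromosome 1 from 150100031 to 150108227 on the plus strand.

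Set side by side, the constitutive transcript exceeded the inducible one in every library. The ratio of Ptgs1 to Ptgs2 in FPKM was 7.05, 7.91 and 4.31 in saline and 9.17, 5.40 and 6.28 in Riclin. The groups overlapped in this ratio, which moved mainly with Ptgs2, the more variable of the pair. By the correlation of log2(FPKM + 1) over the 6 libraries, the tested genes most like Ptgs2 were Clec4a2 (Pearson r = 0.99), a lectin receptor of myeloid cells, and Ms4a4c (r = 0.98), a membrane protein. For Ptgs1 they were Rcsd1 (r = 0.99) and Copa (r = 0.99), a subunit of the coat of Golgi vesicles. These are the best matches over 6 points that share libraries and depth, and describe these libraries only. They come from the 11738 tested genes less predicted genes, clone names and immunoglobulin or T cell receptor segments, which were left out. The 6 macrophage markers, all above 0 in each library, summed to 131 to 161 FPKM in saline and 128 to 211 in Riclin, and their part in the level of Ptgs2 was not tested. In whole-stomach RNA, fewer cells of a type and less RNA per cell cannot be told apart, here and in all that follows.

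Ptges, the inducible membrane-bound prostaglandin E synthase that works with Ptgs2, measured 2.48, 2.14 and 1.76 FPKM in saline replicates 1, 2 and 4, and 1.67, 2.23 and 2.32 FPKM in Riclin replicates 2, 3 and 4. The groups covered nearly the same range. Its log2 fold change was -0.024 (SE 0.135, limma adjusted p = 0.986), with a 95% interval of -0.34 to 0.29.

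Ptges2, a membrane-associated enzyme of the same name, measured 19.2, 17.3 and 13.3 FPKM in saline and 16.9, 19.9 and 17.7 FPKM in Riclin, in the same order of replicates. Saline replicate 4 was the lowest library and the others lay close together. The log2 fold change of 0.14 (SE 0.146, limma adjusted p = 0.913) fell to -0.0036 without saline replicate 4. Ptges3, a cytosolic synthase better known as a co-chaperone of Hsp90, measured 26.2, 23.8 and 29.1 FPKM in saline and 28.4, 31.4 and 25.9 FPKM in Riclin. The groups overlapped, and the log2 fold change was 0.11 (SE 0.12, limma adjusted p = 0.913). A processed copy, Ptges3-ps, was listed at 9.11 to 13.1 FPKM. The sources do not state how reads were shared between Ptges3 and this copy, so the level of Ptges3 is uncertain. The transcripts of Ptges2 and Ptges3 exceeded that of Ptges by 7.55- to 10.1-fold and by 10.5- to 17.0-fold within a library.

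The summed level of the 4 receptor genes was 10.3, 14.6 and 15.4 FPKM in saline and 14.1, 9.24 and 14.3 FPKM in Riclin. Saline replicate 1 and Riclin replicate 3 had the low sums, and Ptger3 accounted for most of the gap. Ptger3 made up 39.6 to 58.4% of the sum in saline and 49.1 to 62.6% in Riclin, and Ptger4 26.6 to 42.0% and 23.2 to 33.3%. Ptger1 and Ptger2 together were the smaller part in every library. These sums and shares depend on the gene lengths behind the FPKM values, which differ from the annotated exons in Ptger3 and Ptger4.

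Ptger4, a cyclic AMP-raising receptor of epithelial and immune cells, was lower in each Riclin library than in any saline library. It measured 4.31, 3.89 and 5.36 FPKM in saline replicates 1, 2 and 4, and 3.58, 3.08 and 3.33 FPKM in Riclin replicates 2, 3 and 4. The gap between the groups, from 3.58 in Riclin to 3.89 in saline, was narrower than the spread within saline. The means were 4.52 ± 0.759 and 3.33 ± 0.253 FPKM (SD, n = 3 each), 1.36-fold lower in Riclin. The log2 fold change was -0.34 (SE 0.123, 95% interval -0.63 to -0.059), with an unadjusted limma p of 0.0242 and an adjusted p of 0.791, so the difference did not pass. Among all tested genes, 3.02% showed no overlap with Riclin lower, and 1.83% were lower at an unadjusted p under 0.05. The reads behind these levels numbered 410 to 558 a library.

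Over the 15 alternatives that tested Ptger4, the log2 fold change stayed below 0, between -0.43 and -0.24, and the limma adjusted p ranged from 0.520 to 0.965. The unadjusted p was under 0.05 in 10 of them. The limma p was 0.0819 without saline replicate 4, 0.0749 without Riclin replicate 3, 0.0531 without Riclin replicate 4, and 0.0950 without saline replicate 1 and Riclin replicate 3 together. It was also above 0.05 in the remaining setting, with the replicate number as a block. By the ranking used for Ptgs2, the genes most like Ptger4 were Sec11c (Pearson r = 0.98) and Slc9a9 (r = 0.98). Sec11c is a subunit of the signal peptidase, and Slc9a9 an endosomal sodium-proton exchanger. Immunoglobulin and T cell receptor segments were thus not among the genes ranked. T cells express Ptger4, and a short T cell list was also lower in Riclin in its summed level. It was chosen after values were seen, so nothing is read from its direction. Of 6 listed markers 5 were measured, none at 0, and their sum was 4.32 to 12.4 FPKM in saline and at most 3.16 in Riclin. In 4 of these 5 every Riclin library lay below every saline library, as in 3.02% of all tested genes. Cd3g measured 2.82, 1.52 and 4.43 FPKM in saline and 0.446, 0.391 and 0.746 in Riclin. The summed macrophage, neutrophil and mast cell markers overlapped between the groups. The antral markers Gast and Pdx1 were, like Ptger4, lower in each Riclin library than in any saline library. This was 2 of 2, beside the same 3.02% of all tested genes. Such a gap was not particular to these lists. It also held for 2 of 5 smooth muscle markers and 1 of 5 surface mucous markers, with 0 higher without overlap in either list. The summed levels of both lists overlapped between the groups. The parts of T cells, the antrum, smooth muscle and surface cells in the level of Ptger4 were not tested. On GRCm38, Ptger4 lies on chromosome 15 from 5206661 to 5244187 on the minus strand. Its annotated exons share 82 bases, 1.23%, with Ttc33 on the opposite strand, and Ttc33 measured 7.79 to 9.67 FPKM with overlapping groups. They also share 15.3% with the pseudogene Gm15937 on that strand. These exons span 6648 bases, whereas the FPKM values imply a length of 3327 bases for Ptger4. The shares in the gene model that was counted are therefore unknown. The sources do not state whether counting used strand, so reads of a gene and of one on the opposite strand cannot be told apart.

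Ptger3, the receptor that lowers cyclic AMP and is known in the stomach for restraint of acid secretion, was at about the same high level in 4 libraries and much lower in the other two. It measured 4.07, 8.53 and 8.13 FPKM in saline replicates 1, 2 and 4, and 8.49, 4.54 and 8.98 FPKM in Riclin replicates 2, 3 and 4. One low library belonged to each group. The standard deviation over the 6 libraries stood at the 93.9th percentile of tested genes, the highest of the 8 tested members. The log2 fold change between the groups was 0.083 (SE 0.301, limma adjusted p = 0.978), and its 95% interval of -0.62 to 0.78 was the widest among them. The sign turned with single libraries, to -0.21 without saline replicate 1, -0.035 without Riclin replicate 2 and -0.07 without Riclin replicate 4.

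The low libraries for Ptger3 were those with the smallest shares of pancreatic acinar reads, 4.30% in saline replicate 1 and 0.0323% in Riclin replicate 3, against 11.1 to 17.6% in the rest. Of 26 listed acinar genes 25 were measured. With Pla2g1b, which did not follow the others, their summed level was 57701 to 175335 FPKM in saline and 21951 to 127806 in Riclin. In Riclin replicate 3, Cpa1, Amy2a5, Spink1, Cuzd1 and Gp2 were listed at 0, while Ptger3 still measured 4.54 FPKM there from 395 reads. Other acinar genes of the list were above 0 there, with Cela1 at 98.7 FPKM and Pnliprp1 at 64.1. Ptf1a, a transcription factor of acinar cells that was picked after values were seen, had 1.47, 5.01 and 5.84 FPKM in saline and 6.16, 1.94 and 6.78 in Riclin. By the ranking used for Ptgs2 above, with the same genes left out, it was the gene most like Ptger3 (Pearson r = 0.99). Its low libraries were therefore those of Ptger3 by choice, and nothing is read from the match. With both libraries left out, the log2 fold change of Ptger3 was 0.061 (limma adjusted p = 0.920). The part of pancreatic tissue in the level of Ptger3 was not tested. Ptger3 lies on chromosome 3 from 157566892 to 157645888 on the plus strand.

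**Figure D2:**
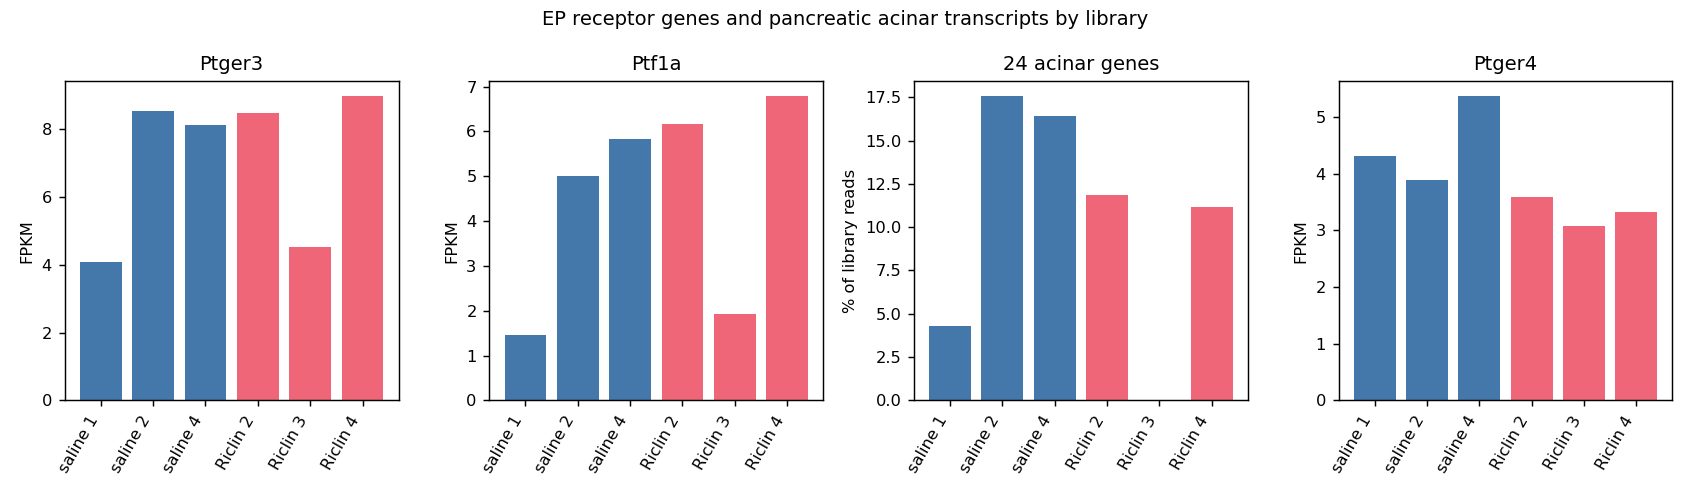
Bars from 0 give, for each of the 6 libraries (saline blue, Riclin red), the FPKM of Ptger3, the FPKM of Ptf1a, the percentage of all reads in 24 pancreatic acinar genes, and the FPKM of Ptger4. Ptger3 and Ptf1a are lowest in saline replicate 1 and Riclin replicate 3, where the acinar share is 4.30% and 0.0323%. Ptf1a was picked for its correlation with Ptger3. Ptger4 is at most 3.58 FPKM in the 3 Riclin libraries and at least 3.89 in saline.

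Ptger2, the other cyclic AMP-raising receptor, was under 1 FPKM throughout. It measured 0.246, 0.485 and 0.596 FPKM in saline and 0.569, 0.273 and 0.410 FPKM in Riclin, from 41 to 91 reads a library. Its lowest libraries were also saline replicate 1 and Riclin replicate 3, with exact 95% Poisson intervals of 0.176 to 0.333 and 0.201 to 0.363 FPKM. The means were 0.442 ± 0.179 and 0.417 ± 0.148 FPKM (SD, n = 3 each), and the same exact permutation test gave p = 0.9.

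Ptger1, the calcium-coupled receptor, measured 1.64, 1.70 and 1.35 FPKM in saline and 1.41, 1.36 and 1.62 FPKM in Riclin. The groups overlapped, with a log2 fold change of -0.056 (SE 0.108, limma adjusted p = 0.948) and the narrowest range of the 10, 1.25-fold from lowest to highest library. Ptger1 lies on chromosome 8 from 83666678 to 83672753 on the plus strand.

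Hpgd, which inactivates prostaglandins by oxidising them, stood at the 97.2nd percentile of mean FPKM among all genes in the table. It measured 86.2, 80.4 and 68.9 FPKM in saline replicates 1, 2 and 4, and 91.4, 92.0 and 55.8 FPKM in Riclin replicates 2, 3 and 4. Riclin held the top 2 libraries and the lowest one. The means were 78.5 ± 8.83 and 79.7 ± 20.7 FPKM (SD, n = 3 each). The log2 fold change was -0.0077 (SE 0.209, 95% interval -0.49 to 0.48, limma adjusted p = 0.995), and it was 0.23 without Riclin replicate 4, 0.062 without saline replicate 1 and 0.012 without saline replicate 2. Within a library Hpgd exceeded Ptgs1 by 15.2- to 29.1-fold, with the smallest ratio in Riclin replicate 4. Ranked as for Ptgs2, its closest matches were Sdc2 (Pearson r = 0.99), a cell-surface proteoglycan, and Ttc4 (r = 0.98), a co-chaperone. Hpgd lies on chromosome 8 from 56294585 to 56321043 on the plus strand.

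Slco2a1, Ptgr1, Ptgr2 and the exporter Abcc4, which act around this step, were lowest in the same Riclin library. Slco2a1, the uptake transporter, measured 38.6, 23.8 and 27.7 FPKM in saline and 25.2, 28.8 and 17.0 FPKM in Riclin. Ptgr1, a reductase that acts after Hpgd, measured 629, 543 and 519 FPKM in saline and 485, 612 and 324 FPKM in Riclin. In 4 of the 5 tested genes of transport and reduction Riclin replicate 4 was below all other libraries, and over all tested genes this held for 1905 of 11738. The surface mucous markers, 5 of 5 measured and none at 0, summed to 61553 to 104993 FPKM in saline and 58117 to 82898 in Riclin, with Riclin replicate 4 the lowest. Saline replicate 4 was close to it in Gkn2 and below it in Gkn1. Krt20, the 1 of the 5 whose groups did not overlap, was at 136, 181 and 60.2 FPKM in Riclin and at 192 to 274 in saline. Of all tested genes 3.02% showed no overlap with Riclin lower. The parts of surface cells and of the antrum in these levels were not tested. Zadh2, another reductase, did not show this, at 20.0 to 25.3 FPKM with the lowest level in saline replicate 2. Neither Slco2a1 nor Ptgr1 passed the test between the groups, with log2 fold changes of -0.33 for Slco2a1 and -0.29 for Ptgr1 (limma adjusted p = 0.861 and 0.884). Without Riclin replicate 4 these were -0.12 for Slco2a1 and -0.043 for Ptgr1.

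**Figure D3:**
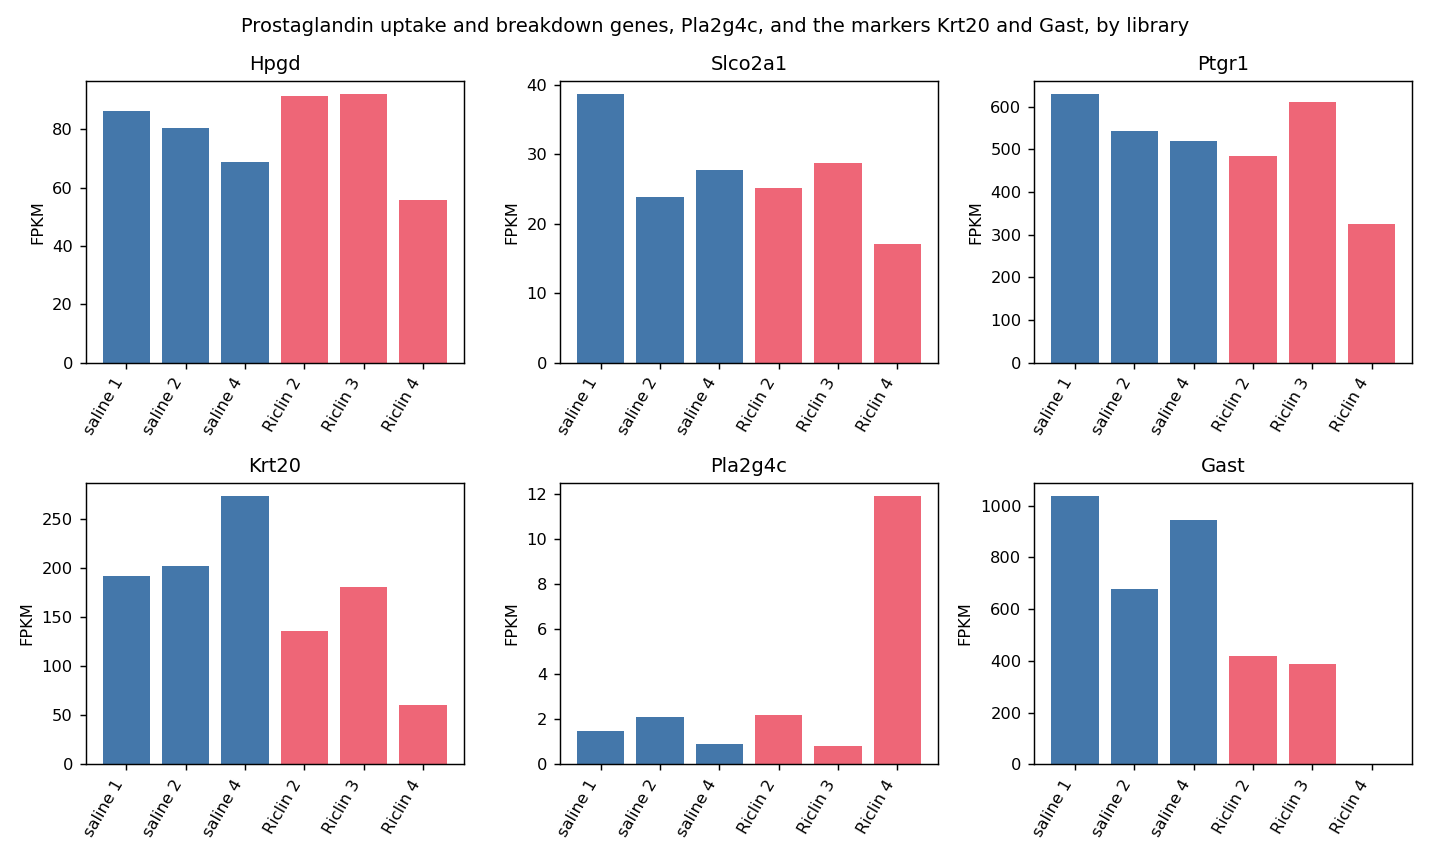
Bars from 0 give the FPKM of Hpgd, Slco2a1, Ptgr1, the surface cell keratin Krt20, the phospholipase Pla2g4c and the antral hormone Gast in the 6 libraries (saline blue, Riclin red). Riclin replicate 4 is lowest in Hpgd (55.8), Slco2a1 (17.0), Ptgr1 (324), Krt20 (60.2) and Gast (2.62), and highest in Pla2g4c (11.9).

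The rest of the eicosanoid pathway was read from 48 further symbols, of which 44 were in the table and 27 were tested. By limma 0 of the 27 passed the adjusted threshold. Fold changes lay above 0 in 18 and below 0 in 9, with a median log2 fold change of 0.10, where 61.3% of all tested genes lay above 0. Of the 27, 1 had an unadjusted p under 0.05 and was higher in Riclin, where 4.07% of all tested genes were. That gene entered the test only through the Riclin libraries, so nothing is read from this count.

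That gene was Ptgfr, the receptor of prostaglandin F. It measured 0.845, 0.761 and 0.653 FPKM in saline and 1.28, 1.26 and 1.53 FPKM in Riclin, so the groups did not overlap, as with Riclin higher in 8.14% of tested genes. It was under 1 FPKM in each saline library. The log2 fold change was 0.43 (SE 0.108, limma adjusted p = 0.691). Leaving out any Riclin library took Ptgfr below the filter. The thromboxane receptor Tbxa2r measured 1.31 to 2.28 FPKM and the prostacyclin receptor Ptgir 0.412 to 0.764, both with overlapping groups.

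Of the phospholipases that free arachidonic acid, 0 of 8 tested reached an unadjusted p under 0.05. The secreted Pla2g10 was at 37.6 to 63.6 FPKM, and Pla2g12a had means of 22.9 in saline and 25.6 in Riclin. The cytosolic Pla2g4a averaged 15.3 ± 1.99 FPKM (SD, n = 3) under saline and 19.2 ± 4.73 (SD, n = 3) under Riclin. It was highest in Riclin replicate 4 at 24.5, with a log2 fold change of 0.29 (SE 0.178, limma adjusted p = 0.846), and 0.11 without Riclin replicate 4. Its relative Pla2g4c, named after its values were seen, was at 11.9 FPKM in Riclin replicate 4 and at 0.822 to 2.17 in the other 5 libraries, so a single library set its Riclin mean of 4.97. Without it the log2 fold change of Pla2g4c was -0.023, against 0.78 with it.

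The other prostanoid synthases also gave 0 of 5 tested at an unadjusted p under 0.05. The carbonyl reductase Cbr1 was at 172 to 257 FPKM, the aldo-keto reductase Akr1b3 at 61.2 to 90.8 and the prostaglandin F synthase Prxl2b at 6.16 to 8.49. Among leukotriene genes 0 of 7 reached that level, and all 7 fold changes lay above 0, with a median of 0.26. Over all tested genes 61.3% lay above 0. Ltb4r1, one of the 7, reached 1 FPKM in every Riclin library but in saline only in replicate 4. Without Riclin replicate 4, 6 of 7 lay above 0, with a median of 0.14, where 7527 of all 11605 genes then tested did. Lta4h, which makes leukotriene B4, was at 18.6 to 24.2 FPKM, Alox5ap, the partner protein of Alox5, at 7.24 to 14.5, and the leukotriene C4 synthase gene Ltc4s at 4.57 to 10.2. In 4 of these 7 genes Riclin replicate 4 was above every other library, as in 1510 of all 11738 tested genes.

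**Figure D4:**
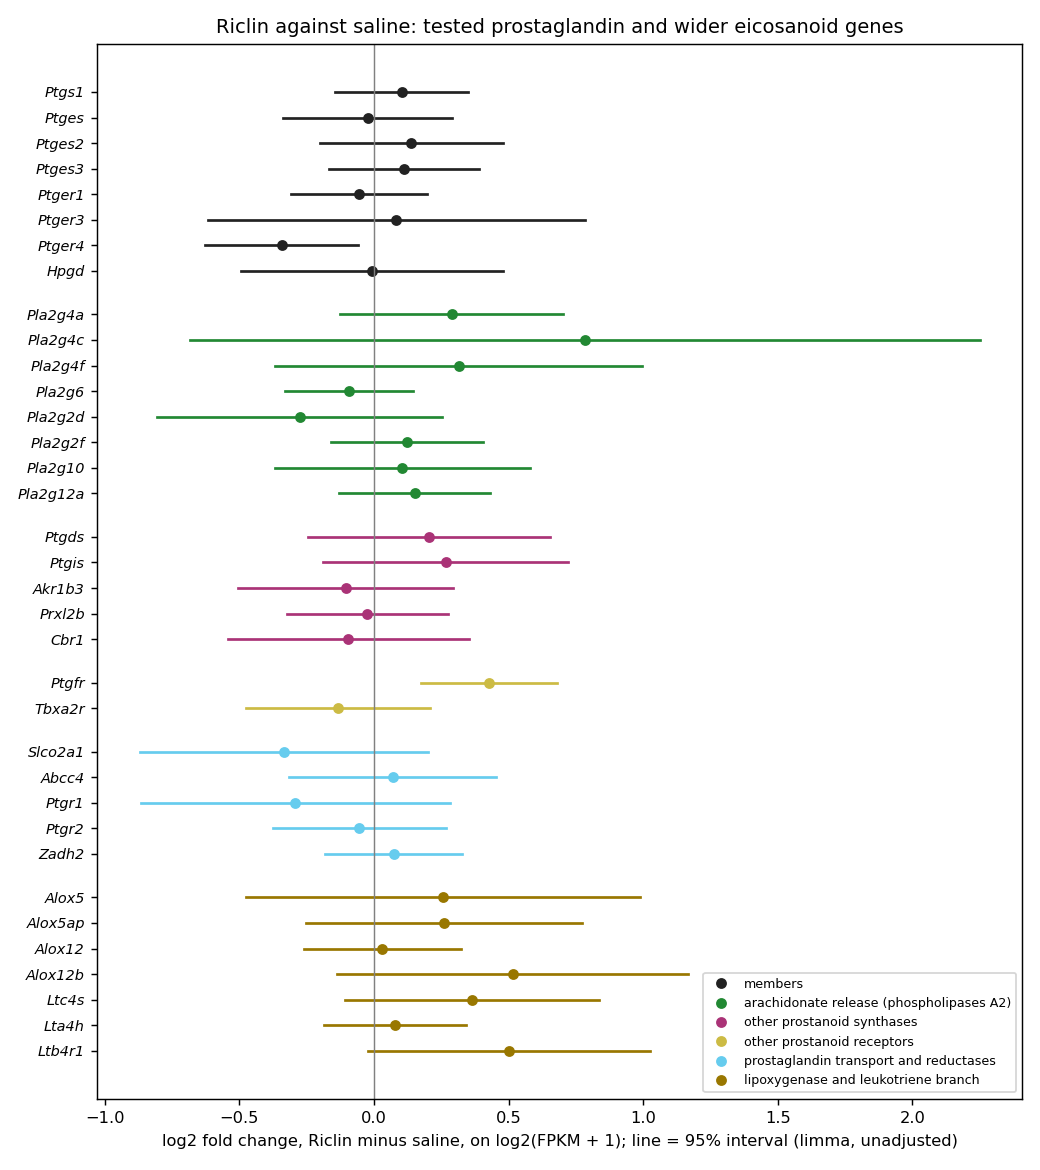
Points give the limma log2 fold change of Riclin minus saline on the scale log2(FPKM + 1) (horizontal axis) for the 8 tested prostaglandin genes (black) and 27 tested genes of the wider pathway, coloured by role; lines are unadjusted 95% intervals. The interval lies wholly below 0 for Ptger4 (-0.63 to -0.059) and wholly above 0 for Ptgfr (0.17 to 0.68), which entered the test only through the Riclin libraries where it was high, and crosses 0 for all others shown.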

How the data were processed

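The authors deposited 1 table of FPKM values for 23550 gene symbols in 6 libraries. The submitters' processing notes name mm10 and Bowtie2, without a version. Which tool counted the reads, on which annotation and strand, is not stated. Columns were matched to samples by title. Whole reads were recovered from ratios between libraries within a relative tolerance of 1e-09 for all but 2 genes. The 11738 genes that reached 1 FPKM in 3 or more libraries were tested on log2(FPKM + 1), which understates changes of low genes, by limma 3.58.1 (R 4.3.3) with an intensity trend, no covariate, two-sided, Benjamini-Hochberg adjusted over all tested genes at 0.05. The steps were tested on simulated data. All 10 members were named, with the 3 most abundant genes of each pathway group and any at an unadjusted p under 0.05. Added to these were the 2 genes most correlated with each of Ptgs1, Ptgs2, Ptger4 and Hpgd. That ranking left out predicted genes, clone names and immunoglobulin or T cell receptor segments. Ptgr2, Abcc4 and Ltb4r1 were named outside these rules, with their values known. Members and lists were chosen with earlier results of these data known. The T cell list, Ptf1a, Pla2g4c and Ptges3-ps were added after values were seen, Ptf1a by its correlation with Ptger3. Positions are from GENCODE M21 (GRCm38, the assembly that mm10 names). Alternatives were a pseudocount of 0.1, no filter, a minimum of 5 FPKM, 2 scalings and a robust prior. Another removed the 25 measured acinar genes, Pla2g1b among them. The rest were the replicate number as a block, libraries left out, and limma's voom on recovered reads. One result on an overlap with another gene is not reported here.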

Additional observations from a re-analysis of the deposited data

How the results depend on the processing

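Of all genes, 0 passed the adjusted threshold under 14 of 16 alternatives. There were 2 with a robust variance prior (Clca1 and Gm52608) and 1 (Cd79b) without saline replicate 2, so leaving out a library gave 0 to 1. The count of prostaglandin genes at an unadjusted p under 0.05, 1 for Ptger4, was 0 to 1 with a library left out: it was 0 when saline replicate 4, Riclin replicate 3 or Riclin replicate 4 was dropped. It was 0 without saline replicate 1 and Riclin replicate 3 together, and 0 with a minimum of 5 FPKM, which leaves Ptger4 untested. The wider count, 1 for Ptgfr, was 2 with no filter, 0 with a minimum of 5 FPKM and 0 to 6 with a library left out (saline replicate 2 left out gave 6, Riclin replicate 3 gave 3, saline replicate 4 gave 2 and Riclin replicate 4 gave 0). The cause was not tested, except that Ptgfr is below the filter without any Riclin library. With the replicate number as a block those counts were 0 and 4, and Ptger4 had a log2 fold change of -0.32 (limma adjusted p = 0.940). Under that block the unadjusted limma p of Ptger4 was 0.116. Since saline replicate 1 and Riclin replicate 3 have no partner, the block draws its fold changes from the other 4 libraries. The numbers 2 and 4 are shared by the groups, but same-numbered deviations correlated at 0.222 and 0.0109. Pairs with different numbers ranged from -0.438 (saline replicate 1 with Riclin replicate 2) to 0.391 (saline replicate 1 with Riclin replicate 3). No label ties the numbers to a litter or day. Fold changes turned sign in Ptges (0.018 with the block, and 0.018 without saline replicate 1 and Riclin replicate 3), and with a library left out ranged from -0.11 to 0.074 in Ptges, -0.0036 to 0.25 in Ptges2, -0.21 to 0.35 in Ptger3 and -0.13 to 0.23 in Hpgd. Ptgs1, Ptges3, Ptger1 and Ptger4 kept their direction under every alternative that tested them. Ptgs2 and Ptger2 were fitted only with no filter, and their 41 to 116 reads a library limit what could be detected.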
